A study of Mus musculus with 9 samples.

Results

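T zone macrophages (TZM) of the lymph node were compared with microglia, the macrophages of the brain, across 19938 genes on 6 of the 9 arrays of the series. The members were chosen by their titles: 3 arrays were titled TZM and 3 were titled microglia, each named as a biological replicate. The other 3 arrays, of dendritic cells, were not used. Every animal had the genotype CX3CR1 gfp+/-, in which a green fluorescent protein (GFP) reporter replaces 1 copy of the fractalkine receptor gene Cx3cr1, so neither population came from a wild-type mouse. TZM were sorted from lymph node as GFP-high, MertK+, CD169- and CD11b+ cells. Microglia were sorted from brain as GFP-high, CD11b+ and CD45+ cells, a gate that does not separate microglia from other GFP-high brain macrophages. Both tissues were minced and digested with DNase I and collagenase I, and CD11b+ cells were enriched on beads. The age and sex of the mice, and whether cells of several mice were pooled, are not given in the labels, so the p-values measure the spread between these arrays.

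Macrophages of different organs share a core set of genes for growth factor sensing, phagocytosis and lysosomal digestion, and each adds a set that its tissue imposes through local signals. Microglia depend on CSF1 receptor signalling and on transforming growth factor beta (TGF-β), express the transcription factor Sall1 and survey neurons and synapses. TZM are Cx3cr1-expressing macrophages of the T cell area of the lymph node, known for taking up dying lymphocytes.

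Levels are log2 values after robust multi-array averaging (RMA), and a difference is TZM minus microglia on that scale, where 1 unit is a doubling. A gene was called when limma's test gave a Benjamini-Hochberg adjusted p under 0.05 over all 19938 genes and the difference was at least 1 in size. Array medians ran from 4.95 to 5.02. As a guide to background, the 95th percentile over 1178 odorant and vomeronasal receptor genes was taken on each array, and it lay between 4.47 and 4.57. A gene under that level on all 3 arrays of a group is called near background there, and its difference understates the true ratio. In such sorted pools, fewer cells of a type and less RNA per cell cannot be told apart.

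Some arrays stood apart within their population, and these differences precede the results because several genes below carry them. Ttr, the transthyretin of the choroid plexus, was at 12.15 and 11.83 in microglia replicates 1 and 3 and at 5.48 in replicate 2. The mannose receptor Mrc1, a marker of macrophages at the borders of the brain, was at 8.96, 7.21 and 8.54 in the 3 microglia arrays. Ms4a7, another border macrophage gene, was at 6.80, 4.37 and 6.63, and the clotting factor gene F13a1 at 6.51, 4.81 and 6.54. Microglia replicate 2 was thus the low array for all 4. The mean level of 17 border macrophage genes was 6.49, 5.53 and 6.34 in these arrays, and that of 11 choroid plexus and ependymal genes was 5.55, 4.44 and 5.31. Among TZM, replicate 2 had the highest levels of salivary gland genes: Bpifa2, a secreted protein of salivary glands, was at 10.24, 12 and 9.29, and Smr3a at 9.19, 10.42 and 8.41. It was also the highest for the neutrophil genes S100a8, at 5.89, 9.28 and 7.32, and S100a9, at 6.21, 9.39 and 7.89. In microglia these 4 genes lay between 3.13 and 4.24.

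Genes of the sex chromosomes separated the populations too. Xist, the RNA that silences an X chromosome in female cells, was at 4.16, 4.36 and 8.26 in TZM and at 10.55, 10.44 and 10.35 in microglia. The Y-linked translation factor gene Eif2s3y was at 6.67, 7.37 and 5.48 in TZM and at 2.81, 3.01 and 2.98 in microglia. Uty, also Y-linked, was at 5.93, 5.68 and 4.34 against 2.97, 3.11 and 3.23. TZM replicate 3 had the highest Xist and the lowest Eif2s3y and Uty of the TZM arrays. The difference in Xist was -4.85 (standard error, SE, 1.11, adjusted p = 0.035), and it was -6.19 without TZM replicate 3 but no longer called without any other array (-4.14 to -4.90, adjusted p = 0.089 to 0.12). Sex and population therefore cannot be told apart in genes that differ between male and female macrophages.

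**Figure D1:**
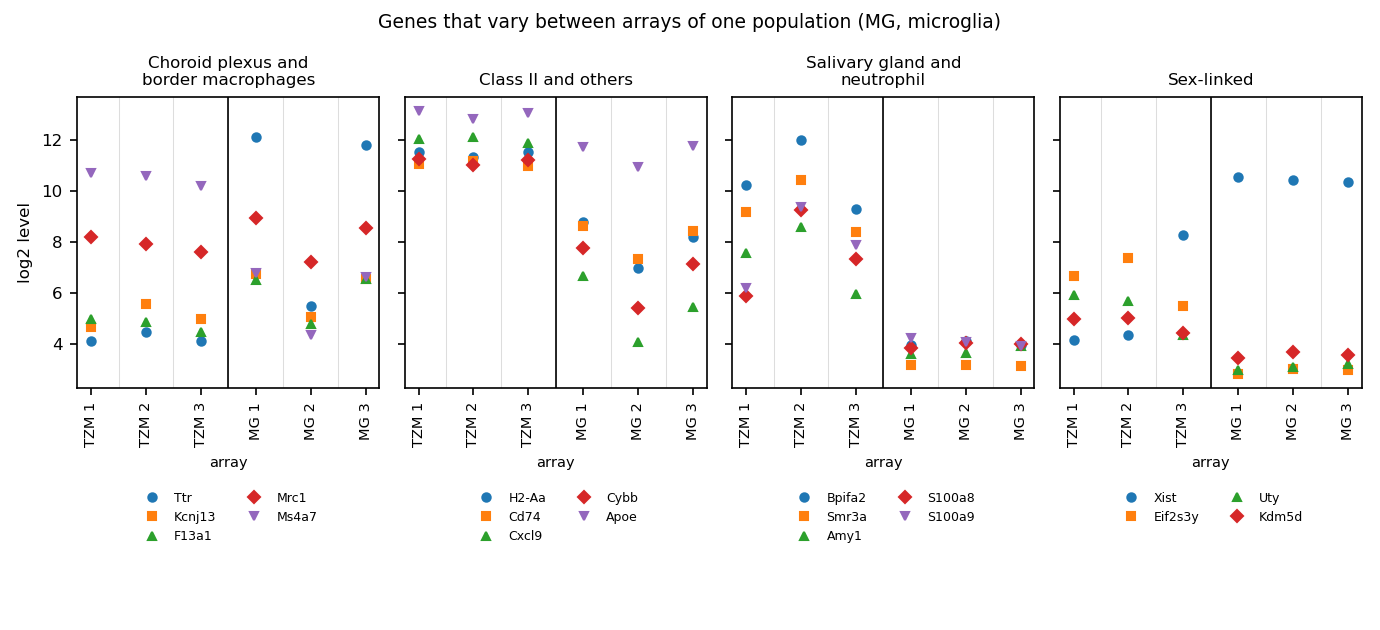
Log2 level of 19 genes on the 3 TZM and 3 microglia (MG) arrays, 1 point per array. Microglia replicate 2 is the low microglia array for Ttr, Mrc1, Ms4a7, H2-Aa and Cxcl9, TZM replicate 2 is the high TZM array for the salivary and neutrophil genes, and Xist is low in TZM replicates 1 and 2 and intermediate in replicate 3.

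In all, 1463 of 19938 genes were called (7.34%), 812 of them higher in TZM (4.07%) and 651 lower (3.27%), and the median difference over all genes was 0.01. Counts for the gene lists below are to be read beside these shares, which cover expressed and unexpressed genes alike. Of the 19938 genes, 7177 were near background in both populations. Among the 7221 genes that passed a filter on level, 724 were called higher and 590 lower, which are larger shares. A list of expressed genes can thus exceed 4.07% or 3.27% without exceeding the share among expressed genes. In each of the 1463 called genes the 3 TZM arrays lay wholly above or wholly below the 3 microglia arrays. The higher side reached further: 74 genes were higher by at least 4 and 30 were lower by at least 4. With every probe set tested in place of genes, the balance turned, to 1003 higher and 1100 lower. With microglia replicate 2 as the only microglia array, 594 genes were called (339 higher, 255 lower), and 539 of them were among the 1463. Of the genes called higher, 135 were near background in microglia, and of those called lower, 82 were near background in TZM.

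The gene with the largest difference was Dnase1l3, a secreted nuclease that digests DNA in chromatin and in particles from dying cells. It was at 11.83, 11.56 and 11.62 in TZM and at 4.48, 4.47 and 4.01, near background, in microglia, a difference of 7.35 (SE 0.15, adjusted p = 9.3e-06) or 163-fold. Pla2g2d, a secreted phospholipase A2 known in lymphoid tissue, was at 12.19, 12.02 and 12.17 against 5.35, 5.18 and 5.30, a difference of 6.85. In the other direction stood Fcrls, an Fc receptor-like gene used as a microglia marker, at 5.03, 4.92 and 5.18 in TZM and 11.92, 11.98 and 11.90 in microglia, a difference of -6.89 (SE 0.08, adjusted p = 1.5e-06). Sparc, a secreted matrix protein, was at 6.08, 6.10 and 6.08 against 12.54, 12.42 and 12.44. Tjp1, the scaffold protein ZO-1 of tight junctions, was near background in TZM, at 4.14, 4.04 and 3.98, and at 9.93, 9.94 and 9.93 in microglia (-5.88, SE 0.06). In each of these 5 genes the arrays of a population lay far closer to each other than to those of the other.

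**Figure D2:**
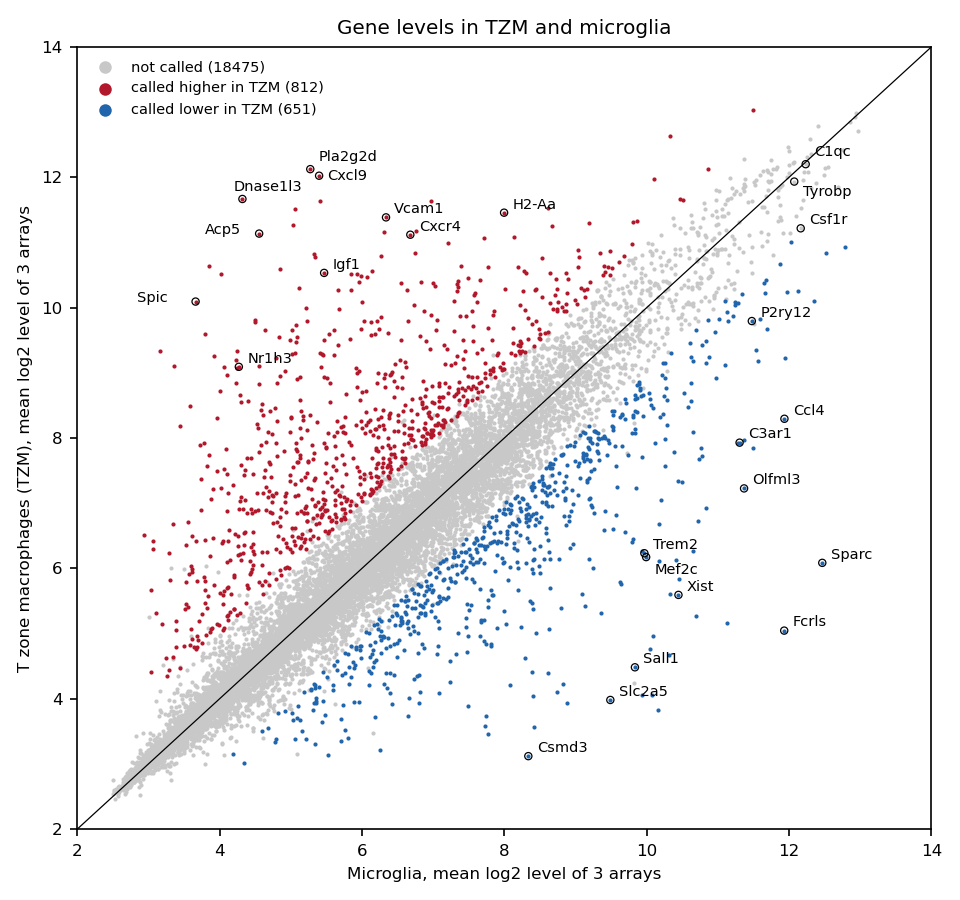
Mean log2 level of 19938 genes in 3 microglia arrays (x axis) and 3 TZM arrays (y axis), with genes called higher in TZM in red (812), called lower in blue (651) and not called in grey. Dnase1l3, Pla2g2d and Spic lie far above the diagonal, Fcrls, Sparc and Sall1 far below it, and C1qc, Tyrobp and Csf1r near it.

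The labels were set against markers of macrophages in general. Of 31 measured genes of the macrophage core, 20 were not called, 9 were lower in TZM and 2 higher, with a median of -0.39. C1qc, a chain of the complement protein C1q, was at 12.29, 12.17 and 12.14 in TZM and 12.23, 12.30 and 12.17 in microglia, so the arrays overlapped (difference -0.03, SE 0.07). Tyrobp, the adaptor of many activating receptors, stood at -0.14 and the lysosomal glycoprotein gene Cd68 at 0.44. Csf1r, the receptor for CSF1, was at 11.28, 11.12 and 11.26 against 12.20, 12.15 and 12.15, a difference of -0.95 (SE 0.06, adjusted p = 0.00039) that fell just short of the fold minimum. Among the called members, Trem2, a lipid-sensing receptor, was lower by far: 6.21, 6.28 and 6.20 in TZM and 10.19, 9.92 and 9.80 in microglia, a difference of -3.74 (SE 0.11, adjusted p = 2e-05). The lipopolysaccharide co-receptor Cd14 (-2.61), the IgG receptor Fcgr1 (-2.19) and the protease Lgmn (-1.73) were lower too. Lyz2, the macrophage lysozyme, was higher by 2.31 and Apoe, a lipid carrier, by 1.54. Apoe was at 11.74, 10.95 and 11.78 in microglia, lowest in replicate 2, and with that array as the only microglia array its difference was 2.08.

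Genes of the sort gates are no finding. Itgam, which encodes CD11b, differed by -2.92 and Cx3cr1 by -1.87, and Mertk was at 10.02, 10.02 and 10.02 in TZM and 10.80, 10.78 and 10.38 in microglia. Siglec1, which encodes CD169, was at 8.15, 6.79 and 7.21 in TZM, sorted as CD169-, and at 5.56 in each microglia array. Its call (1.82) was lost without TZM replicate 3 or any microglia array (1.82 to 1.91, adjusted p = 0.055 to 0.069). Identical values were common, with 984 to 1282 genes the same between any 2 arrays of a population.

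Most of the microglia signature was lower in TZM. Of its 45 measured genes 37 were called lower and 0 higher by limma (43 and 2 at an unadjusted p under 0.05), with a median of -2.37, beside 3.27% of all genes called lower. Adamts1, a matrix protease, was near background in TZM at 3.86, 3.88 and 3.76, and at 10.60, 9.52 and 10.36 in microglia (-6.33, SE 0.28, adjusted p = 8e-05). Gpr165, an orphan receptor, stood at -6.02 and Plxdc2 at -5.97. P2ry12, the ADP receptor through which microglial processes move towards injury, was at 9.73, 9.87 and 9.78 against 11.49, 11.44 and 11.50. The difference in P2ry12 was -1.68 (SE 0.06, adjusted p = 3.9e-05), while its TZM level stayed far above the background guide. Siglech, a sialic acid-binding lectin also known from plasmacytoid dendritic cells, was at 8.31, 8.26 and 7.35 in TZM and 11.36, 11.32 and 11.41 in microglia. In TZM 7 of the 45 genes were near background, in microglia 1.

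Of 24 measured genes known from macrophages of lymph node and spleen 17 were higher in TZM, 1 was lower and 6 were not called, with a median of 2.35, beside 4.07% of all genes called higher. This list, like the microglia signature, was chosen with earlier results of these data known, so its count is no independent test. The gate gene Siglec1 (1.82) is among the 17. Timd4, a phosphatidylserine receptor, was at 11.47, 11 and 11.32 in TZM and at 5.41, 4.49 and 5.17 in microglia (6.24, SE 0.26, adjusted p = 6.8e-05). Cxcl9, an interferon-induced chemokine for T cells, was at 12.04, 12.13 and 11.91 against 6.67, 4.07 and 5.46, a difference of 6.63. Its microglia arrays were widely spread with replicate 2 lowest, and against that array alone the difference was 7.95. Vcam1, an adhesion molecule for lymphocytes, was at 11.51, 11.16 and 11.48 against 6.51, 6.18 and 6.32 (5.05, SE 0.13). The lower member, the hyaluronan receptor Lyve1, is also a border macrophage gene (-1.03), and without TZM replicate 3 or microglia replicate 1 or 3 it was not called.

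Of 64 measured transcription factors 9 were called higher (14.1%), 12 lower (18.8%) and 43 in neither direction, with a median of -0.06, beside 4.07% and 3.27% of all genes. Spic, a factor of macrophages that recycle heme iron, was at 10.29, 9.91 and 10.09 in TZM and near background in microglia, at 3.95, 3.74 and 3.30 (6.43, SE 0.19, adjusted p = 2e-05). Sall1, which maintains microglial identity, had the opposite pattern, at 4.37, 4.60 and 4.47 in TZM and 10.23, 9.70 and 9.58 in microglia (-5.35, SE 0.18, adjusted p = 3e-05). For both genes the low population sat at or close to the background guide. The paralogous repressors Bhlhe40 and Bhlhe41 diverged: Bhlhe40 was at 9.66, 9.94 and 9.74 against 4.77, 4.32 and 4.41, and Bhlhe41 at 3.89, 4.01 and 3.90 against 9.16, 8.78 and 8.69. The differences were 5.28 (SE 0.14) and -4.94 (SE 0.13), so each population had a high level of a different paralog.

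Among nuclear receptors, Nr1h3, the oxysterol receptor LXRα, was at 9.26, 8.76 and 9.25 in TZM and near background in microglia, at 4.16, 4.40 and 4.26 (4.82, SE 0.15, adjusted p = 2.7e-05). Its dimer partner Rxra was higher by 1.79, the lipid receptor Pparg by 2.37 and the retinoic acid receptor Rara by 2.45. Tfec, of the family that controls lysosomal genes, was higher by 4.27 and Runx3 by 2.90. On the lower side, Mef2c, which restrains microglial activation, was at 6.16, 6.61 and 5.75 against 10.04, 9.96 and 9.98 (-3.82, SE 0.21). Hhex (-2.63), Sall3 (-2.34) and the TGF-β signal transducer Smad3 (-1.76) were lower as well. Irf8, needed for microglia and for some dendritic cells, was at 9.70, 9.72 and 9.72 against 9.13, 9.10 and 9.49 (0.48, SE 0.11, adjusted p = 0.039), under the fold minimum, and Maf stood at -0.71. Irf4 was near background in both populations.

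Of 38 measured genes of the TGF-β and BMP pathway 12 were called lower, 2 higher and 24 in neither direction, with a median of -0.35. The ligand gene Tgfb1 was at 9.31, 8.54 and 9.32 in TZM and 9.47, 9.47 and 9.29 in microglia, overlapping (-0.35, adjusted p = 0.41). Its type I receptor Tgfbr1 was at 10.25, 10.17 and 10.25 against 11.67, 11.63 and 11.69 (-1.44, SE 0.05, adjusted p = 4.7e-05). The BMP receptor Bmpr1a was near background in TZM (-3.04). Feedback genes that TGF-β induces were lower, with Smad7 at 5.76, 6.21 and 5.81 against 8.46, 8.19 and 8.54 (-2.47) and Ldlrad4 at -2.18. The co-receptor Eng was lower (-2.08), while Tgfbr3, another co-receptor, was higher by 1.66.

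Of 29 growth factors and their receptors, 5 were higher and 7 lower. Igf1, insulin-like growth factor 1, was at 10.59, 10.58 and 10.43 in TZM and 5.86, 4.98 and 5.56 in microglia (5.07, SE 0.22, adjusted p = 8.1e-05), or 33.5-fold. The epidermal growth factor receptor ligand Hbegf was higher by 3.63, Vegfa by 2.56 and the receptor Igf2r by 3.16. Lower in TZM were the cytokine Osm (-2.92), the macrophage growth factor Csf1 itself (-2.61) and the granulocyte factor receptor Csf3r (-2.22). Csf2rb, the shared receptor chain for GM-CSF, was higher by 1.23.

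**Figure D3:**
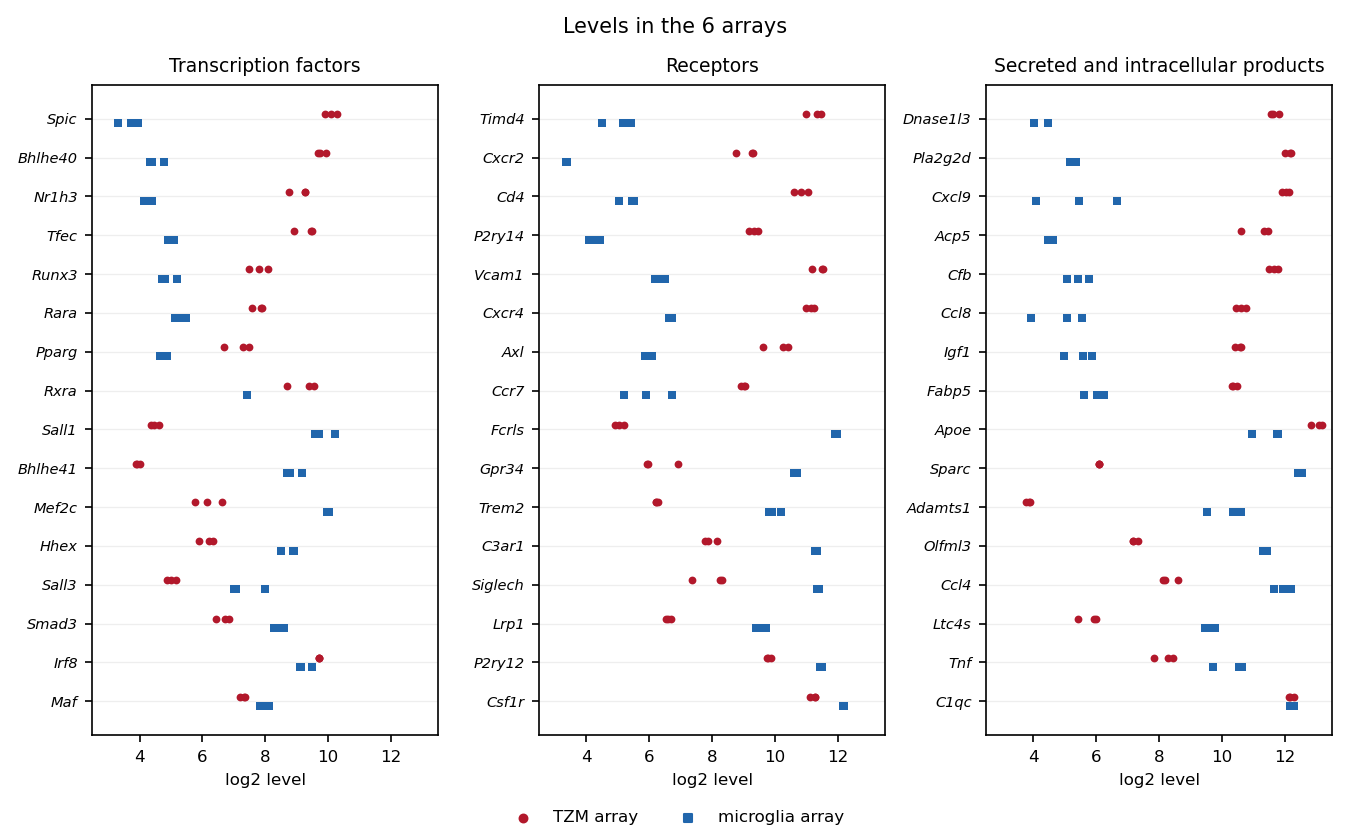
Log2 level on each of the 3 TZM arrays (red circles) and 3 microglia arrays (blue squares) for 16 transcription factors, 16 receptors and 16 secreted or intracellular products. Spic, Nr1h3 and Bhlhe40 are high in TZM, Sall1, Bhlhe41 and Mef2c are high in microglia, and the arrays of C1qc overlap.

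Of 41 receptors and bridges for dead cells 5 were higher in TZM and 8 lower (median -0.08). Beside Timd4, the receptor kinase Axl was at 10.42, 9.62 and 10.25 in TZM and 6.09, 5.87 and 6.06 in microglia (4.09, SE 0.21, adjusted p = 0.00015). The scavenger receptor Colec12 (3.22) and Cd300lf (2.87), which also binds phosphatidylserine, were higher. Lower was Lrp1, a large endocytic receptor, at 6.69, 6.53 and 6.59 against 9.71, 9.41 and 9.46 (-2.92, SE 0.10, adjusted p = 3e-05). Pros1 (-2.62) and Gas6, ligands that bridge phosphatidylserine to Mertk, were lower in TZM. Gas6, which also binds Axl, was at 6.48, 6.48 and 6.45 against 8.46, 7.88 and 7.78 (-1.57). Stab1, a scavenger receptor, differed by -2.17, and the integrin chain Itgb5 by -2.05. The scavenger receptor list, which shares Colec12, Scarb1, Lrp1 and Stab1 with the list for dead cells, had 7 of 24 members higher and 2 lower, among them Msr1 (2.19) and the lipoprotein receptor Scarb1 (2.07) on the higher side.

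Downstream of uptake, 10 of 62 lysosomal genes were higher in TZM and 5 lower (median 0.22). Acp5, tartrate-resistant acid phosphatase, was at 11.32, 10.61 and 11.48 in TZM and 4.46, 4.63 and 4.58 in microglia (6.58, SE 0.23, adjusted p = 3.5e-05). The galactolipid hydrolase Galc (2.18), the proton pump subunit Atp6v0d2 (2.0) and the cholesteryl ester hydrolase Lipa (1.71) were also higher. Arsb, which removes sulfate from glycosaminoglycans, was lower, at 6.46, 6.97 and 7.33 against 10.74, 10.89 and 10.86 (-3.91), as was the sorting receptor Sort1 (-1.80). The cathepsins Ctsb and Ctsd had differences of 0.63 and -0.39 and were not called. Of 17 genes for clearing nucleic acids 3 were higher and 1 lower. With Dnase1l3 these were the exonuclease Pld3 (1.72) and the dNTPase Samhd1 (1.23), and the lysosomal Dnase2a stood at 0.73 and was not called.

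Of 21 measured genes of the LXR and cholesterol efflux list 8 were higher in TZM and 1 lower, with a median of 0.83. The 8 include the receptor Nr1h3 (4.82) and its partner Rxra (1.79), given above, which are not efflux genes. Scd1, a fatty acid desaturase and LXR target, was at 9.22, 8.99 and 9.12 in TZM and 4.70, 3.92 and 5.04 in microglia (4.55, SE 0.29, adjusted p = 0.00028). Apoc1 was higher by 3.86 and the phospholipid transfer protein Pltp by 2.92. Abca1, the cholesterol exporter and a classic LXR target, was at 10.01, 9.51 and 9.80 against 9.41, 9.34 and 9.26 and was not called (0.44, adjusted p = 0.09). Mylip, an LXR target that degrades the LDL receptor, was lower, at 8.37, 8.37 and 8.28 against 9.97, 9.91 and 9.98 (-1.61, SE 0.06). The share called higher was 38.1%, beside 4.07% of all genes, and the share called lower 4.76%, beside 3.27%. At an unadjusted p under 0.05 in limma 14 were higher and 2 lower. Of 20 cholesterol synthesis genes 0 were called by limma (7 at an unadjusted p under 0.05, each higher), and without TZM replicate 2, 2 were called higher. Of 34 fatty acid genes 6 were higher, including the binding protein Fabp5 (4.43), the lipid droplet protein Plin2 (2.34) and the dehydrogenase Acadl (1.75). Mgll was the 1 called lower (-1.06), a call lost without microglia replicate 1.

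Of 34 phospholipase and eicosanoid genes 4 were called higher, 7 lower and 23 in neither direction, with a median of 0.00. Ltc4s, leukotriene C4 synthase, was at 5.43, 5.99 and 5.94 in TZM and 9.46, 9.79 and 9.63 in microglia (-3.84, SE 0.17, adjusted p = 9.4e-05). Alox5ap, which presents arachidonic acid to 5-lipoxygenase, was at 7.49, 7.84 and 7.84 against 10.76, 10.79 and 10.79 (-3.06, SE 0.11). The lipoxygenase Alox5 itself (-2.08) and the leukotriene receptor Cysltr1 (-3.25) were lower too, and these 4 leukotriene genes are no list of their own. Beside Pla2g2d, the higher members were Pla2g7 (4.61), which inactivates platelet-activating factor, and Plaat3 (2.35).

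Among 32 iron and heme genes 8 were called higher and 1 lower, with a median of 0.21. Cp, the ferroxidase ceruloplasmin, was at 8.99, 8.92 and 8.81 in TZM and 5.80, 4.34 and 5.11 in microglia (3.82), and is on the border macrophage list as well. The iron reductase Cybrd1 (2.39) and the heme exporter Flvcr1 (1.89) were higher. The iron exporter Slc40a1, at 8.60, 8.41 and 8.47 against 7.47, 7.99 and 7.53, stood at 0.83 and heme oxygenase Hmox1 at 0.69, both with arrays apart but under the fold minimum. The porphyrin exporter Abcg2 was lower (-1.62).

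Of 36 measured chemokine genes 10 were higher in TZM and 5 lower, with a median of 0.20. Beside Cxcl9, Ccl8 was at 10.61, 10.75 and 10.43 in TZM and 5.07, 3.92 and 5.55 in microglia (5.75, SE 0.41). The T cell attractants Ccl5 (4.53) and Ccl22 (3.42) were higher. Ccl4, an inflammatory chemokine, was at 8.12, 8.60 and 8.17 against 12.19, 11.67 and 11.95 (-3.64, SE 0.18, adjusted p = 0.00013). Ccl3, its neighbour in function, was lower (-1.86), as were Ccl9 (-2.30) and Ccl6 (-1.51). Ccl3 and Ccl4 are also immediate early genes that digestion can induce. Of 23 chemokine receptors 4 were higher and 2 lower, the latter being the gate gene Cx3cr1 and the atypical receptor Ccrl2 (-1.38). Cxcr4, the receptor for CXCL12, was at 11.14, 11.23 and 10.99 in TZM and 6.64, 6.66 and 6.74 in microglia (4.44, SE 0.08, adjusted p = 5.1e-06). Cxcr2, best known from neutrophils, was at 9.29, 9.27 and 8.77 against 3.38, 3.34 and 3.37 (5.74), and the part of neutrophils in it was not tested. Ccr7, which guides cells to the T zone, was at 9.02, 8.91 and 9.04 against 5.20, 6.72 and 5.89 (3.06, SE 0.37).

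Among 29 cytokine genes 5 were called higher and 7 lower. Il18bp, the soluble inhibitor of interleukin 18, was at 10.85, 10.90 and 10.79 in TZM and 6.97, 6.97 and 6.31 in microglia (4.10, SE 0.19), and Il18 itself was higher by 2.05. The interleukin 1 antagonist Il1rn (1.99) and Il12a (1.71) were higher. Tnf was at 8.28, 7.84 and 8.45 against 10.62, 9.72 and 10.53 (-2.10, SE 0.28, adjusted p = 0.0052) and Il6, near background in TZM, differed by -2.36. Il10 was at 6.22, 6.34 and 4.98 against 5.95, 4.38 and 5.08, with arrays that overlapped (adjusted p = 0.47). Among 41 genes of the TNF superfamily 3 were higher and 3 lower (7.32% each, beside 4.07% and 3.27% of all genes). The death receptor Fas (3.25) and Tnfsf15 (2.77) were on the higher side. Il12rb2, a chain of the interleukin 12 receptor, was higher by 3.45 and the interleukin 22 decoy Il22ra2 by 3.16, while the receptor chain Lifr was lower (-3.00). These belong to 42 interleukin receptor subunits, 3 of them higher (7.14%) and 5 lower (11.9%).

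Of 55 C-type lectins, pattern and glycan receptors, 16 were higher in TZM and 0 lower by limma (23 and 2 at an unadjusted p under 0.05), with a median of 0.16, and 22 of the 55 were near background in both populations. With a filter on level, 10 were called higher. Clec4n, which encodes dectin-2, a receptor for fungal mannans, was at 9.55, 9.47 and 8.73 in TZM and near background in microglia, at 4.24, 3.75 and 3.78 (5.33, SE 0.26, adjusted p = 0.00011). Clec7a, the β-glucan receptor dectin-1, was at 10.01, 9.55 and 9.81 against 6.63, 5.55 and 6.44 (3.59). Clec12a, a receptor for crystals of dead cells, was higher by 4.11, with microglia at 5.75, 3.71 and 5.30. It is itself on the border macrophage list, whose mean had the same order in these arrays. Clec2i stood at 4.15.

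Of 10 Toll-like receptor genes 3 were higher and 3 lower. Tlr8 was at 5.97, 6.11 and 5.76 in TZM and near background in microglia (2.34). Tlr7, its neighbour on the X chromosome and also a receptor for RNA, was at 8.77, 8.77 and 8.69 against 9.86, 10.15 and 9.73 (-1.17, SE 0.12). Tlr3, for double-stranded RNA (-2.12), and Tlr13 (-1.34) were lower. In the cytosol, the nucleic acid sensors Zbp1 (2.60) and Ddx58 (1.71) and the peptidoglycan sensor Nod1 (2.47) were higher, whereas the inflammasome genes Nlrp3 (-1.42) and Nlrp1b (-1.44) were lower. In all, 6 of 32 genes on the list of other nucleic acid and danger sensors were higher and 5 lower. These counts include the cytokine Il18 (2.05) on the higher side. On the lower side they include the cytokine Il1b (-1.48) and the co-receptor Cd14 (-2.61).

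Fc receptors and related immunoreceptors were split, 8 higher and 8 lower of 36 (median 0.00), and without microglia replicate 3 the higher count was 5. Beside Fcrls, Trem2 and Fcgr1, Vsir, the T cell inhibitor VISTA, was lower, at 7.87, 7.23 and 7.61 against 10.27, 10.38 and 10.11 (-2.68). Higher were Treml4 (2.99), Lilrb4a (2.91) and Cd300lf. Of 9 Siglec genes 2 were higher and 2 lower. Siglece, an inhibitory receptor, was lower, at 5.6, 5.27 and 5.94 against 8.88, 9.43 and 8.96 (-3.49), while Cd22, known from B cells, was higher, at 7.92, 7.16 and 7.77 against 5.51, 5.38 and 5.58 (2.13, SE 0.20).

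In the complement system 5 of 30 genes were higher and 4 lower. Cfb, factor B of the alternative convertase, was at 11.78, 11.48 and 11.65 in TZM and 5.41, 5.77 and 5.06 in microglia (6.23, SE 0.19, adjusted p = 2.3e-05). Properdin, encoded by the X-linked Cfp, was higher by 5.45 and C2 by 2.5. Also higher were Itgax (2.88), a chain of complement receptor 4, and the regulator Cd55 (1.95, adjusted p = 0.047). The anaphylatoxin receptors were lower, with C3ar1 at 7.87, 8.16 and 7.76 against 11.30, 11.27 and 11.35 (-3.38, SE 0.11), C5ar1 at -2.82 and C5ar2 at -1.33, as was the gate gene Itgam, a chain of complement receptor 3. C3 had no probe set with a single symbol and was not analysed here.

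**Figure D4:**
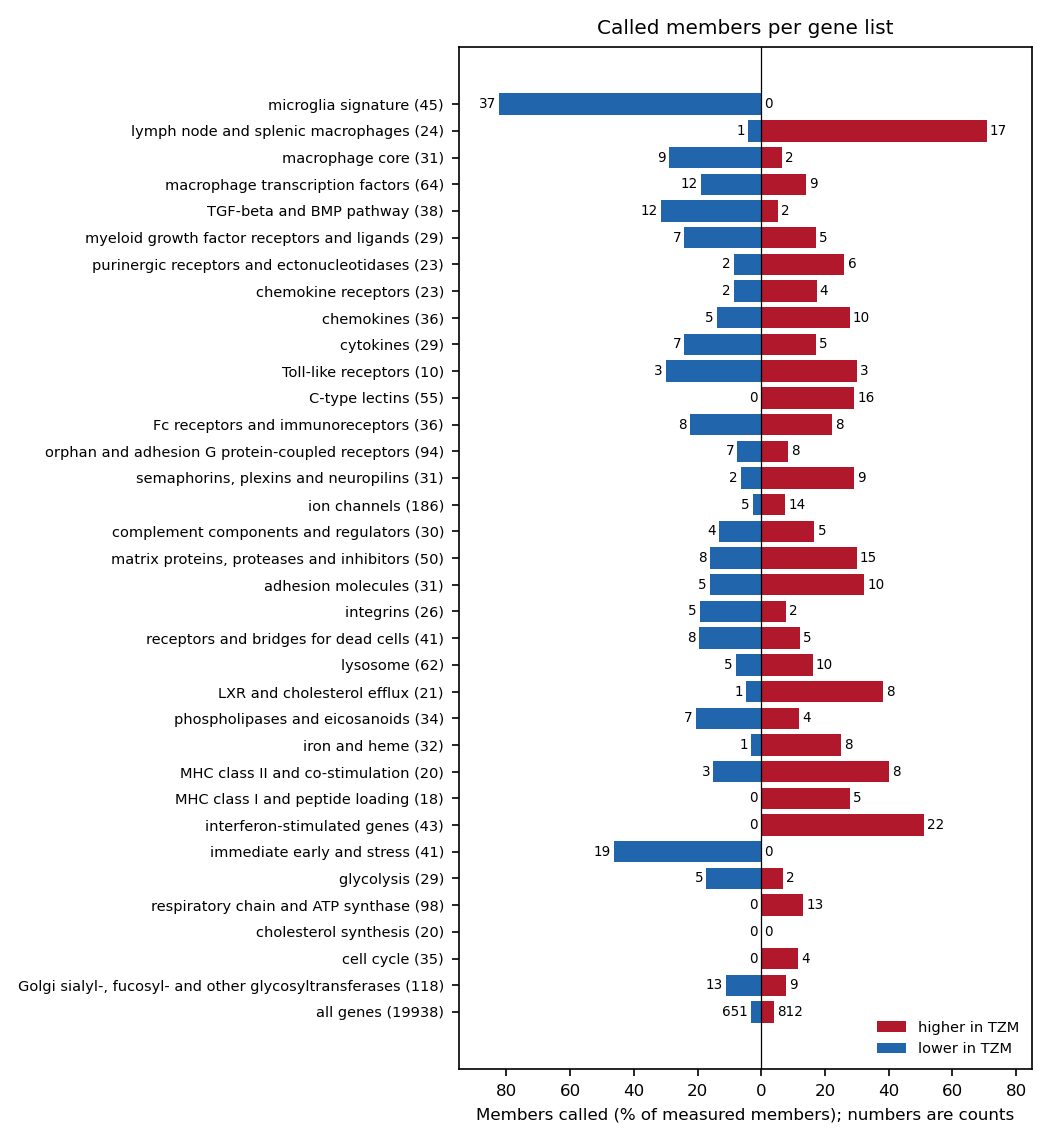
Share of the measured members of each gene list called higher (red, to the right) or lower (blue, to the left) in TZM, with the counts at the bar ends, the number measured in parentheses and all 19938 genes at the bottom. The microglia signature (37 of 45 lower) and the immediate early genes (19 of 41 lower) extend to the left, and the interferon-stimulated genes (22 of 43 higher) and lymph node and splenic macrophage genes (17 of 24 higher) to the right.

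Of 31 adhesion genes 10 were higher in TZM and 5 lower. Cd44, the hyaluronan receptor, was at 9.78, 9.45 and 9.73 in TZM and 4.49, 4.55 and 4.90 in microglia (5.01, SE 0.14, adjusted p = 1.9e-05), and the lymphocyte-type receptors Slamf7 (3.74) and Ly9 (2.75) were higher with Vcam1, as was the junction cadherin Cdh5 (2.42). Cd34, a sialomucin, was near background in TZM, at 3.64, 3.43 and 3.64, and at 8.35, 8.65 and 8.24 in microglia (-4.84). The tight junction adhesion molecules F11r (-3.99) and Jam2 (-3.66) were lower beside their intracellular partner Tjp1, which is on no list. The selectin ligand Selplg (-2.25) and the tetraspanin Cd9 (-1.70) completed the lower side. Of 26 integrins 2 were higher, Itgax (2.88) and Itgal (1.56), and 5 lower, such as Itga6 (-1.41) and Itgb3 (-1.57).

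In the extracellular matrix list 15 of 50 genes were higher and 8 lower, with a median of 0.10. Tgm1, a transglutaminase, was at 10.51, 10.09 and 10.32 in TZM and 5.03, 5.18 and 5.14 in microglia (5.19, SE 0.12). Lgals3, the β-galactoside-binding galectin 3, was at 10.51, 10.38 and 10.54 against 5.98, 6.21 and 6.01 (4.40, SE 0.09), and the cathepsin inhibitor Cst7 was higher by 4.51. The lower side held Sparc, Adamts1, Olfml3 (-4.14) and Serpinf1 (-2.54). Hpse, the heparanase that cleaves heparan sulfate, was at 9.70, 9.54 and 9.55 against 3.81, 4.05 and 3.51 (5.81).

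Of 31 semaphorin, plexin and neuropilin genes 9 were higher in TZM and 2 lower. Plxnd1 was at 9.29, 8.84 and 9.55 in TZM and 4.71, 4.78 and 4.90 in microglia (4.43, SE 0.18), Plxnc1 was higher by 4.37 and Plxna1 by 4.06. Plxna4 was the reverse, near background at 4.44, 4.27 and 4.51 in TZM and at 8.42, 8.32 and 8.45 in microglia (-3.98, SE 0.08, adjusted p = 9.3e-06). Among ligands Sema4a was higher by 2.86 and Sema4g lower (-1.39).

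Of 23 purinergic genes 6 were higher and 2 lower. P2ry14, the receptor for UDP-glucose, was at 9.18, 9.47 and 9.34 in TZM and near background in microglia, at 4.23, 4.09 and 4.42 (5.09, SE 0.12, adjusted p = 9.3e-06). The ATP-gated channel P2rx4 was higher by 2.51 and adenosine deaminase Ada by 1.98. P2ry12 and the ectonucleotidase Entpd1 (-1.22) were lower, and the UDP receptor P2ry6 stood at -0.59. Of 94 orphan and adhesion G protein-coupled receptors 8 were higher (8.51%, beside 4.07% of all genes) and 7 lower (7.45%, beside 3.27%), 46 being near background in both. Adgre5, which encodes CD97, was at 9.81, 9.74 and 9.81 against 5.07, 5.06 and 5.57 (4.55), and Adgrg6 was higher by 3.09. Adgrg1, a microglial adhesion receptor that binds collagen, was at 5.05, 4.82 and 5.02 against 10.03, 10.27 and 9.96 (-5.13, SE 0.11), Gpr84 differed by -4.72 and Gpr34 by -4.39. Among 186 ion channel genes 14 were higher (7.53%, beside 4.07% of all genes) and 5 lower (2.69%, beside 3.27%), with a filter on level leaving 9 and 1. The lysosomal channel Mcoln2 (5.03), the volume-regulated channel subunit Lrrc8c (4.47) and the potassium channel Kcnj10 (4.25) led the higher side.

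Genes for MHC class II presentation were among those that moved with the microglia arrays. Of 20 class II and co-stimulation genes 8 were higher in TZM and 3 lower, with a median of 0.98. H2-Aa was at 11.52, 11.33 and 11.52 in TZM and 8.79, 6.98 and 8.22 in microglia (3.46, SE 0.45, adjusted p = 0.0044). Cd74, the invariant chain, was at 11.09, 11.17 and 10.99 against 8.63, 7.35 and 8.43 (2.94, SE 0.33). In both genes microglia replicate 2, the array low in border macrophage genes, was the lowest, and against it alone the differences were 4.48 for H2-Aa and 3.73 for Cd74. The part of border macrophages in the class II level of replicates 1 and 3 was not tested. H2-Eb1 was at 10.50, 9.82 and 10.66 against 7.32, 6.69 and 7.07 (3.30, SE 0.27), and against replicate 2 alone it was not called (3.64, adjusted p = 0.06). H2-Ab1 (3.36, adjusted p = 0.023) lost its call without TZM replicate 1, 2 or 3 (3.34 to 3.37, adjusted p = 0.063 to 0.084). Ciita, which switches on class II genes, was at 6.0, 5.99 and 5.94 against 5.54, 5.61 and 4.93 and was not called (0.61, adjusted p = 0.085). Of the co-stimulators Cd40 was higher by 2.15, Cd86 stood at 0.96 just under the fold minimum, and Cd83 (-1.78) and Icosl (-1.59) were lower.

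Class II promoters are known for an X box and a Y box that bind the complex CIITA joins, and the windows of the 200 bases before the start of 2 chain genes show the Y box, CCAAT or its reverse complement, in capitals. The sequences are RefSeq's for assembly GRCm38.p6, each written 5′ to 3′ in the direction of the gene.
H2-Aa (chr17:34287824-34288023, minus strand): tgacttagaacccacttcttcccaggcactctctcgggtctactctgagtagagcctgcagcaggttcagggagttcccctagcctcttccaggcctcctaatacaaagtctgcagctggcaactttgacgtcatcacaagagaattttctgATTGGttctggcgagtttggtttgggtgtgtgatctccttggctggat
H2-Eb1 (chr17:34305667-34305866, plus strand): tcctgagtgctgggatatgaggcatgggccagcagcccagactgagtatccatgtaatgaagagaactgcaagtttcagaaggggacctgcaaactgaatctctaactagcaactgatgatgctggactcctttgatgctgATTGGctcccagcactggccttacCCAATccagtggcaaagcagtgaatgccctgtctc
The motif was found in 3 of the 3 class II chain genes that were called higher and had a promoter in the table. It is short, and 38.8% of 15614 tested genes with a promoter held it on either strand, so the matches are a description. The partial site TGACG, which X2 boxes resemble, was in 1 of the 3 and in 24.1% of those genes. These counts cover a longer stretch before the start than the 200 bases shown.

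For class I presentation 5 of 18 genes were higher and 0 lower by limma (13 and 1 at an unadjusted p under 0.05), with a median of 0.63. Tap1, a chain of the peptide transporter, was at 8.26, 7.73 and 8.26 in TZM and 6.13, 5.91 and 6.11 in microglia (2.04, SE 0.17, adjusted p = 0.00073). The immunoproteasome subunit Psmb9 (1.49), the proteasome activator subunit Psme2 (1.15) and the loading factor Tapbp (1.21) were higher with it. These genes are inducible by interferon.

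Interferon-stimulated genes were higher in TZM for 22 of 43 measured members, lower for 0 and not called for 21, with a median of 1.3. At an unadjusted p under 0.05 in limma 35 were higher and 1 lower, and without microglia replicate 2 the calls were 16 higher and 1 lower. Slfn5 was at 8.08, 8.26 and 7.95 in TZM and 5.29, 4.87 and 4.79 in microglia (3.11, SE 0.16, adjusted p = 0.00013). Irf7, the factor that amplifies type I interferon, was at 7.72, 7.54 and 7.64 against 4.62, 4.49 and 4.98 (2.94, SE 0.14). Iigp1, a GTPase against intracellular parasites, was higher by 3.48. Bst2, which tethers budding viruses, was at 10.67, 10.58 and 10.62 against 7.86, 7.71 and 7.75 (2.85, SE 0.06, adjusted p = 9.3e-06). The part of border macrophages in the interferon differences was not tested. Ifi205 was at 6.89, 4.86 and 6.97 against 3.97, 2.97 and 2.91 (2.96, adjusted p = 0.029), and its call was lost without any array other than TZM replicate 2 (2.59 to 3.30, adjusted p = 0.061 to 0.11).

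Interferon regulatory factors bind the interferon-stimulated response element, whose core was searched as GAAA, any 2 bases, GAAA on both strands. The same 200-base windows of 3 genes called higher show it in capitals, where overlapping matches run together. Gbp3, a GTPase gene induced by interferon gamma (2.62), was chosen after its values were seen, in place of Ifit1 (1.69, adjusted p = 0.033), whose window also held 2 matches but whose call lay nearer the threshold.
Slfn5 (chr11:82951902-82952101, plus strand): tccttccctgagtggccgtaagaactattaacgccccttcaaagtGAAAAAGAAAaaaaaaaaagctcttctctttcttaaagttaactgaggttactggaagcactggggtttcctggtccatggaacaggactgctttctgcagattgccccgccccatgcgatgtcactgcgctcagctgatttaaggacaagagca
Bst2 (chr8:71537473-71537672, minus strand): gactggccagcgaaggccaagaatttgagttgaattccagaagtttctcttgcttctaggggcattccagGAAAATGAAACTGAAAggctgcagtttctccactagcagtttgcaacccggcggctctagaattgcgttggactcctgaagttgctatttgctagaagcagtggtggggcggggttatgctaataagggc
Gbp3 (chr3:142559844-142560043, plus strand): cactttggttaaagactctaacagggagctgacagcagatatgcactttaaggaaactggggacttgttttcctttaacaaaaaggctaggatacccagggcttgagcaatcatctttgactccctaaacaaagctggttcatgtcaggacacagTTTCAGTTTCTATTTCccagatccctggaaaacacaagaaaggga
The core was counted over a longer stretch before the start than the 200 bases shown, in any promoter window of a gene. Of the 22 genes called higher 17 had a promoter in the table, and 11 of these (64.7%) held the core. It was in 4 of 14 (28.6%) interferon-stimulated genes that were not called, in 54 of 642 (8.41%) of all genes called higher, in 13 of 510 (2.55%) of those called lower and in 531 of 15614 (3.4%) tested genes. The match in Slfn5 begins 155 bases before the start and those in Bst2 130 and 124 bases before it. Those in Gbp3 begin 45 and 39 bases before it. Another promoter window of Gbp3, at chr3:142560156-142560355 and not shown, held 0 matches in its 200 bases.

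Of 29 glycolysis and sugar genes 2 were higher and 5 lower, with a median of -0.02. The higher members were the phosphofructokinase Pfkp (1.54) and Pgk1 (1.02), a kinase of the payoff phase whose call was lost without TZM replicate 2 or microglia replicate 1. Slc2a5, the fructose transporter, was near background in TZM, at 3.92, 4.01 and 4.01, and at 9.62, 9.63 and 9.22 in microglia (-5.51, SE 0.12, adjusted p = 9.3e-06). The lactate dehydrogenase subunit Ldhb (-1.75) and the hexokinase Hk2 (-1.41) were lower with it. Of 98 respiratory chain and ATP synthase genes 13 were higher and 0 lower by limma (69 and 1 at an unadjusted p under 0.05), with a median of 0.70, and 85 were not called. A shift to the same side was seen in 44 cytosolic ribosomal protein genes, with a median of 0.38. Of these 1 was higher and 0 lower by limma (29 and 0 at an unadjusted p under 0.05). Cox5a, of complex IV, was at 10.46, 10.77 and 10.38 in TZM and 8.17, 8.30 and 8.44 in microglia (2.24, SE 0.12), and Uqcr11, of complex III, was higher by 1.37.

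Of 344 solute carriers 19 were higher (5.52%) and 14 lower (4.07%), shares near those of all genes (4.07% and 3.27%). The phosphate importer Slc20a1 (2.64) and the cystine importer Slc7a11 (2.46) were higher, and the organic anion carrier Slco2b1 (-4.06) and the folate carrier Slc46a1 (-2.18) lower. Of 118 glycosyltransferase genes 9 were higher and 13 lower, with a median of -0.01. St3gal6, which caps galactose with α2,3-linked sialic acid, was at 6.26, 5.89 and 6.22 in TZM and 10.39, 10.45 and 10.38 in microglia (-4.28, SE 0.11, adjusted p = 1.3e-05), and St3gal5, the synthase of ganglioside GM3, was lower (-3.44). St6galnac3 was near background in microglia and higher by 3.75, and the fucosyltransferase Fut4 by 2.91. Of the other called sialyltransferases St6galnac2 (2.72), St8sia6 (2.19) and St3gal1 (1.98) were higher and St3gal2 (-1.02) was lower.

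Regulators of small GTPases were lower in TZM for 18 of 120 members and higher for 8. Rasgrp3, an exchange factor for Ras, was at 5.33, 5.55 and 4.94 in TZM and 10.74, 10.60 and 10.75 in microglia, while its paralog Rasgrp1, best known from T cells, was at 7.80, 7.75 and 7.23 against 4.27, 4.21 and 4.40, near background. The differences were -5.43 (SE 0.16) and 3.30 (SE 0.16), another pair of paralogs on opposite sides. Rapgef5 differed by -4.31, Arhgap5 by -3.40 and the exchange factor Dock5 by 3.29. The 59 Rab GTPases had shares near those of all genes, 5.08% higher and 1.69% lower, and Rab7b, Rab38 and Rab30 were higher (3.30, 3.30 and 1.92) and Rab6b was lower (-2.37). Of 19 measured Ms4a genes 3 were higher, with Ms4a7 (4.58) at 6.14 against microglia replicate 2 alone.

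Immediate early and stress genes, which tissue digestion can induce, were lower in TZM for 19 of 41 members and higher for 0 by limma (32 and 2 at an unadjusted p under 0.05), with a median of -1.01. Gem, a GTPase induced on activation, was at 6.5, 6.71 and 6.85 in TZM and 10.41, 9.94 and 10.16 in microglia (-3.48, SE 0.15, adjusted p = 7.5e-05), Ier3 differed by -3.36 and Nr4a1 by -3.11. Fos and Egr1, the genes most often read as digestion markers, had differences of -1.27 and -1.01 that lay on the same side but lost their calls when single arrays were left out, Fos without any array other than TZM replicate 1. Ccl3 and Ccl4 are members of this list. Tnf, Il6, Nlrp3 and Il1b were lower as well, Il1b (-1.48) with a call that was lost without any array other than microglia replicate 2 (-1.18 to -1.66, adjusted p = 0.064 to 0.11), and the part of the digestion in these differences was not tested. In the cell cycle list 4 of 35 genes were higher and 0 lower by limma (17 and 0 at an unadjusted p under 0.05). Bub1b (2.46) and Top2a (1.58) led, and with a filter on level 1 remained called. With the mean of probe sets Top2a stood at 0.61 and was not called. Of 28 cell death genes 4 were higher (14.3%, beside 4.07% of all genes) and 1 lower (3.57%, beside 3.27%). The necroptosis genes Ripk3 (2.24) and Mlkl (1.29) and the BH3 protein gene Pmaip1 (1.99) were higher beside Fas. The caspase gene Casp8 was lower (-1.03), a call lost without any array other than TZM replicate 2.

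Markers of other cells were read on the same arrays. Of 14 T cell genes 4 were higher in TZM, a count of 2 without TZM replicate 3 or any single microglia array, and Il7r was lower (-1.55). Cd4 was at 11.06, 10.59 and 10.83 in TZM and 5.44, 5.02 and 5.50 in microglia (5.51, SE 0.17, adjusted p = 2.6e-05). Cd3e, which encodes a CD3 chain of the T cell receptor complex, was at 6.08, 5.97 and 6.38 against 5.12, 5.23 and 5.34 (0.91). Cd3d was at 4.81, 4.78 and 5.10 against 3.76, 3.54 and 3.79 and was called higher (1.20, adjusted p = 0.0015). Cd3g (1.16) and Thy1 (1.32) were the other called members. At an unadjusted p under 0.05 in limma 8 of the 14 were higher and 1 lower. The mean over the T cell list was 5.41 to 5.59 in TZM and 4.72 to 4.73 in microglia. For 21 dendritic cell genes, 6 of them higher and 1 lower by limma, the means were 6.54 to 6.57 and 5.77 to 5.79. At an unadjusted p under 0.05 in limma 18 of the 21 were higher and 1 lower. The 6 were Ccr7, Itgax, Bst2, Traf1, Clec9a and Dpp4, and the lower member was Siglech. For 19 stromal and endothelial genes the means were 5.40 to 5.41 and 4.93 to 5.04. The stromal chemokine genes Cxcl13 and Ccl19 were among the 5 higher stromal members, Cxcl13 at 8.36, 8.65 and 7.98 against 5.03, 4.92 and 5.08 and Ccl19 at 8.82, 8.76 and 8.46 against 5.71, 5.98 and 5.64. The lymphatic genes Prox1 (-1.73) and Lyve1 were lower. Of 18 salivary gland genes 3 were higher, and the list's mean was 4.97, 5.63 and 4.67 in TZM and 3.69 to 3.77 in microglia. B cell genes had means of 4.89 to 4.97 and 4.62 to 4.68, with 2 of 14 higher and Tnfrsf17 lower (-2.92). Of 14 neutrophil genes 3 were higher (Cxcr2, S100a8 and S100a9), a count of 1 without TZM replicate 3 or any single microglia array, and Csf3r was lower, with list means of 4.97 to 5.58 and 4.37 to 4.41. Of 12 monocyte genes 4 were higher (2 without microglia replicate 2) and 1 lower, with means of 5.47 to 5.87 and 4.71 to 4.81, and of 8 NK cell genes 2 were higher, with means of 4.21 to 4.67 and 3.65 to 3.78. Of 15 neuronal genes 0 were called by limma (2 at an unadjusted p under 0.05), with means of 4.16 to 4.21 in TZM and 4.16 to 4.2 in microglia, and astrocyte and oligodendrocyte lists each had 1 called member of 12 and 13. The part of these cells in any difference above was not tested.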

How the data were processed

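RNA of sorted cells was measured on Affymetrix mouse gene arrays. The authors deposited log2 values of 35556 probe sets, made with Affymetrix Expression Console 1.3.1 and RMA per the submitters' processing notes; the genome build is not given in the sources used here. The platform annotation used named a single gene for 21789 probe sets, more than 1 gene for 1621 and no gene for 12146. Entrez identifiers linked 21698 of the single-gene probe sets to RefSeq genes of GRCm38.p6. The brightest probe set per gene left 19938 genes. The table held 0 columns that could not be given to a sample. Groups were compared by lmFit and eBayes from limma 3.58.1, run in R 4.3.3, with only the group as a term and 6 arrays. On simulated data the fit was tested with known changes. Array number limits the precision, and an exact test of 3 against 3 cannot go below p = 0.1. Members and lists were chosen with earlier results of these data known, and lists overlap (Trem2 is on several). Named genes were the 15 largest called changes in each direction with arrays that did not overlap (leaving out antigen receptor segments, small RNAs, clones and predicted genes), up to 4 called members per list and direction, and fixed genes, of which C3 and Ddx3y had no probe set with a single symbol and some others are not reported here. The genes of Other observations, Cybb, Gbp3, Cd55, Cd9, Cdh5, other sialyltransferases and markers of single arrays or sexes were chosen after their values were seen. Probes of near-identical paralogs, such as the Gbp, Lilr and Pyhin genes, may share signal. Promoters came from RefSeq's GRCm38.p6. Alternatives were the fold minimum, a level filter (3 or more arrays reaching 6), centring, quantile normalization, other probe set rules, all 9 arrays, eBayes options, array weights, a replicate block, each array left out and, added after seeing the data, microglia replicate 2 as the only microglia array.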

Additional observations from a re-analysis of the deposited data

How the results depend on the processing

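The 1463 calls (812 higher, 651 lower) became 3259 with no minimum fold change (1680 higher, 1579 lower), 511 with a minimum of 2 (337 higher, 174 lower) and 594 with microglia replicate 2 as the only microglia array (339 higher, 255 lower), where a lone array is assumed to vary like the TZM arrays. With every probe set 2103 were called, 1003 higher and 1100 lower. The other planned settings gave 1314 (level filter) to 1525 calls (all 9 arrays in the fit). Leaving out an array gave 1265 to 1488 calls, 691 to 844 higher and 565 to 647 lower. The fewest calls in all and the fewest higher came without microglia replicate 1, and the fewest lower without microglia replicate 3. In these settings 0 of the 1463 calls changed direction. The replicate block gave 1381 calls (763 higher, 618 lower), of which 1366 were among the 1463. The numbers did not pair the arrays, since same-numbered TZM and microglia arrays had correlations of 0.08, -0.09 and -0.15 in their deviations from the group means. Signs turned for some uncalled genes when 1 array was left out, with ranges of -0.14 to 0.43 for Id2, -0.27 to 0.028 for Irf4, -0.30 to 0.019 for C1qa and -0.84 to 0.033 for Mrc1. Array weights gave -0.026 for Id2 (0.19 in the fit reported). With microglia replicate 2 as the only microglia array the values were 0.70 for Mrc1, -0.030 for Il34 and 0.0058 for Kcnj13. The cause was not tested. Array signal limits genes near background: 7177 of 19938 were so in both populations.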

Other observations

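Some gene groups that the lists above did not hold were read after their values were seen, so their counts support nothing beyond these arrays. Of 16 measured S100 genes, which encode small calcium-binding proteins, 7 were higher in TZM and 0 lower by limma (8 and 0 at an unadjusted p under 0.05). S100a6 was at 10.58, 10.82 and 10.51 in TZM and near background in microglia, at 3.94, 3.69 and 3.93 (6.78, SE 0.11, adjusted p = 5.1e-06), and S100a4 differed by 4.78. S100a8 and S100a9 belong to the 7, and both lost their calls without TZM replicate 3 or any microglia array (3.48 to 3.82, adjusted p = 0.079 to 0.13), as the higher count of the group fell to 4 without TZM replicate 3 or microglia replicate 3. Of the calcium-dependent membrane-binding annexins Anxa5 (3.25), Anxa4 (2.75) and Anxa2 (2.30) were higher, 3 of 12, or 5 without TZM replicate 2, and Anxa3 was the 1 called lower (-1.03), a call lost without TZM replicate 1 or 2 or microglia replicate 1. The intermediate filament gene Vim was at 11.73, 11.56 and 11.62 against 6.86, 6.73 and 7.30 (4.67, SE 0.16), and the cortical scaffold Iqgap1 at 10.60, 10.42 and 10.53 against 5.88, 5.66 and 6.01 (4.67, SE 0.10). Of 24 myosin genes 5 were higher and 0 lower by limma (8 and 3 at an unadjusted p under 0.05), led by Myo10 (3.93), the motor of filopodia, Myo5a (3.70) and Myo1e (3.42).

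Among molecules better known from lymphocytes, the T cell co-stimulatory receptor Cd28 was at 9.19, 9.50 and 8.54 in TZM and near background in microglia, at 4.37, 4.02 and 4.32 (4.84, SE 0.26, adjusted p = 0.00015). Icos was at 9.12, 9.57 and 9.14 against 6.04, 4.92 and 5.86 (3.67), and its ligand Icosl had a difference of -1.59. Cd200, the ligand of an inhibitory receptor of myeloid cells, was at 8.68, 8.35 and 8.67 against 4.43, 4.09 and 4.68 (4.17). Cd3e and Cd3d, on the same arrays, were at 5.97 to 6.38 and 4.78 to 5.10 in TZM, and at 5.12 to 5.34 and 3.54 to 3.79 in microglia. The part of T cells in these levels was not tested.

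Of 10 measured Pyhin genes, interferon-induced proteins that include DNA sensors, 6 were higher in TZM, and these neighbours may share probe signal. Ifi203 was at 10.17, 10.24 and 9.52 against 6.45, 4.80 and 5.80 (4.30, SE 0.44), lowest in microglia replicate 2. The oxidase chain gene Cybb was at 11.27, 11.02 and 11.23 against 7.76, 5.41 and 7.12 (4.41, SE 0.59), a difference of 5.77 against replicate 2 alone.

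The imprinted neighbours Peg10 and Sgce were both near background in TZM. Peg10 was at 3.85, 3.75 and 3.61 in TZM and 7.67, 7.87 and 7.68 in microglia (-4.01, SE 0.09), and Sgce at 4.18, 4.23 and 4.23 against 8.02, 7.96 and 8.25 (-3.86, SE 0.09). Genes called lower had a median genomic span of 36.3 kb, those called higher 21.8 kb and all genes 17.7 kb. Of 54 small nucleolar RNA genes 6 were lower and 0 higher by limma (16 and 3 at an unadjusted p under 0.05), such as Snord82 (-2.28) and Snora31 (-1.91). Of 296 genes of microRNA precursors 5 were lower (1.69%, under the 3.27% of all genes) and 0 higher by limma (34 and 8 at an unadjusted p under 0.05), among them Mir142 (-1.62) and Mir23a (-1.69), a count that fell to 2 without TZM replicate 1 or 3.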
